A study of Mus musculus with 6 samples.

Results

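Inhibitory receptors and exhaustion factors were followed across 6 RNA-seq libraries of CD8+ T cells from mouse spleen, 3 with and 3 without floxed alleles of Glut10. The 10 genes were chosen by name as checkpoint receptors and Tox factors of exhausted CD8+ T cells, out of 35458 gene identifiers in the deposited files, and all 10 were found. They are 7 checkpoint receptors (Pdcd1, Ctla4, Lag3, Tigit, Cd160, Btla and Havcr2), the ectonucleotidase Entpd1, and the nuclear factors Tox and Tox2. The genotypes were Cd4creGlut10fl/fl (KO) and Cd4cre (control), with 3 libraries each. Both genotypes carry Cd4cre, which expresses Cre recombinase in developing T cells of both the CD4 and the CD8 lineage, so a deletion would not be limited to CD8+ cells. The floxed gene, Slc2a10, encodes Glut10, a facilitative hexose transporter. Age, sex, treatment and any pooling of mice are not stated in the labels, and neither is tumour status, although the series title mentions lymphoma.

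Checkpoint receptors sit on activated T cells, bind ligands on neighbouring cells and damp signalling through the T cell receptor and CD28. When antigen persists, CD8+ T cells keep several of these receptors at once and lose effector functions, a state called exhaustion that depends on the nuclear factor Tox. Most of these genes are not restricted to CD8+ T cells: regulatory T cells carry Ctla4, Tigit and Entpd1, B cells carry Btla and Entpd1, NK cells carry Tigit and Cd160, and macrophages and dendritic cells carry Havcr2 and Entpd1.

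The values are FPKM, a count of fragments per unit of exon length and of library depth. The totals implied by these values were 3420290, 14683400 and 3004540 fragments in KO 1, 2 and 3, and 11840600, 15020100 and 15036300 in control 1, 2 and 3. Slc2a10 had 0 implied reads in each KO library, against 4, 2 and 2 in control 1, 2 and 3, all near or under the floor of 3 reads. The summed level of 10 T cell core genes, such as Cd3d, was 1198, 1698 and 1226 FPKM in KO 1, 2 and 3, against 1142, 491 and 348 FPKM in control 1, 2 and 3. Cd8a and Cd8b1 summed to 430, 856 and 432 FPKM in the KO libraries, against 541, 108 and 99.5 FPKM in the controls. Control 2 and control 3 therefore had the lowest levels of the genes that define the labelled cell type. The same 2 libraries had the highest sums of 11 neutrophil genes, 15560 and 28750 FPKM, against 65.0 to 616 FPKM in the KO libraries and 419 FPKM in control 1. Their 7 erythroid genes summed to 2210 and 1009 FPKM, against 2.63 to 33.9 FPKM in the KO libraries and 6.07 FPKM in control 1. In libraries of bulk RNA, fewer cells of a type and less RNA per cell cannot be told apart.

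For 3 of the genes, the 250 bases before the RefSeq start are shown, on the strand of the gene, so that the letters of a pair of checkpoint genes that were highest in KO 2 can be set beside those of Havcr2, which was lowest there. They lie at chr1:94052554-94052803, minus strand (Pdcd1), chr1:60908775-60909024, plus strand (Ctla4) and chr11:46454681-46454930, plus strand (Havcr2), in RefSeq's table for GRCm38.p6, which is not the build named for the files and holds 8 of the 10 genes. Capitals mark matches, on either strand, to GGAAA (the core that NFAT factors bind), TGANTCA (AP-1) and TGTGGT (the core that RUNX factors bind).
Pdcd1: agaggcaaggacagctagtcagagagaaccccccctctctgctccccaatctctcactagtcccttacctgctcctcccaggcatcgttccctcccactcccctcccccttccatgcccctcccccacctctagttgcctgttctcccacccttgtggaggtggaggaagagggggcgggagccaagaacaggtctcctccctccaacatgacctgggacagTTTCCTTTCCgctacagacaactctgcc
Ctla4: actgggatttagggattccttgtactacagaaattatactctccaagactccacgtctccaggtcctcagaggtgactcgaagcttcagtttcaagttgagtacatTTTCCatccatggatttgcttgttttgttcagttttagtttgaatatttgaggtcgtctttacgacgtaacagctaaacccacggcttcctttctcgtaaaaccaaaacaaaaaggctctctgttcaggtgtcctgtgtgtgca
Havcr2: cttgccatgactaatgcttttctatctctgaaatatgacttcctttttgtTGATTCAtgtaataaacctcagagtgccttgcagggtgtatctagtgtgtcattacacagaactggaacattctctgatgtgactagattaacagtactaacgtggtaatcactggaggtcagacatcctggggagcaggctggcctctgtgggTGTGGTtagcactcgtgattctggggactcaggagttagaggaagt
Pdcd1 held 2 adjoining matches to GGAAA, starting 28 and 23 bases before its start, and Ctla4 held 1, starting 144 bases before. Havcr2 held none, but 1 match to TGANTCA and 1 to TGTGGT, starting 200 and 46 bases before its start. Among the other genes, Btla, also highest in KO 2, held no GGAAA and 1 TGTGGT. Both windows of Cd160, also highest in KO 2, held 1 TGTGGT each, and 1 of them held no GGAAA. Tigit, highest in KO 2 as well, held 2 matches to GGAAA and 1 to TGTGGT, in a window whose start lay in no GENCODE transcript. The match to TGTGGT was therefore not limited to Havcr2. Entpd1, also lowest in KO 2, held 2 matches to GGAAA in 1 of its windows and none in the other. Among 32536 promoter windows of the same length, 55.7% held GGAAA, 6.73% TGANTCA and 14.0% TGTGGT, so the first motif was common. No binding was measured in these cells, and the matches describe letters only.

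In the comparison of KO with control, none of the genes passed the test. limma on log2(FPKM + 1) called 0 of 13956 genes at an adjusted p of 0.05, which is 0% of the genes tested, with 1646 genes (11.8%) at an unadjusted p under 0.05. limma-voom on implied reads also called 0, with 1413 at an unadjusted p under 0.05. Its estimates were larger in size for the 9 tested genes described below, with log2 differences of 1.45 for Cd160, 1.29 for Tox, 1.17 for Ctla4, 1.09 for Tigit, 0.73 for Btla, 0.48 for Lag3, -1.48 for Entpd1 and -1.62 for Havcr2, and 0.22 for Pdcd1, whose sign turned. Of the 10 genes, 9 had at least 1 FPKM in at least 3 libraries and were tested, and Tox2 was not. Of these 9, 6 had a higher and 3 a lower estimate in KO, beside 56.9% higher and 43.1% lower among all tested genes. The median log2 difference of the 9 genes was 0.21, beside 0.10 for all tested genes, and it was -0.37 without KO 2 and 0.72 without control 1. After quantile normalization 5 of the 9 genes and 42.2% of all genes were higher, and the medians were 0.02 for the 9 genes and -0.12 for all tested genes. All KO libraries lay below all controls for 1 of the 9 genes, Havcr2, and above all controls for none, where these patterns covered 9.44% and 6.7% of all tested genes. A count of 1 among 9 is near that background. Separate mice behind the libraries of a group are not stated in the labels, so the p-values cover a spread that may be technical.

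**Figure D1:**
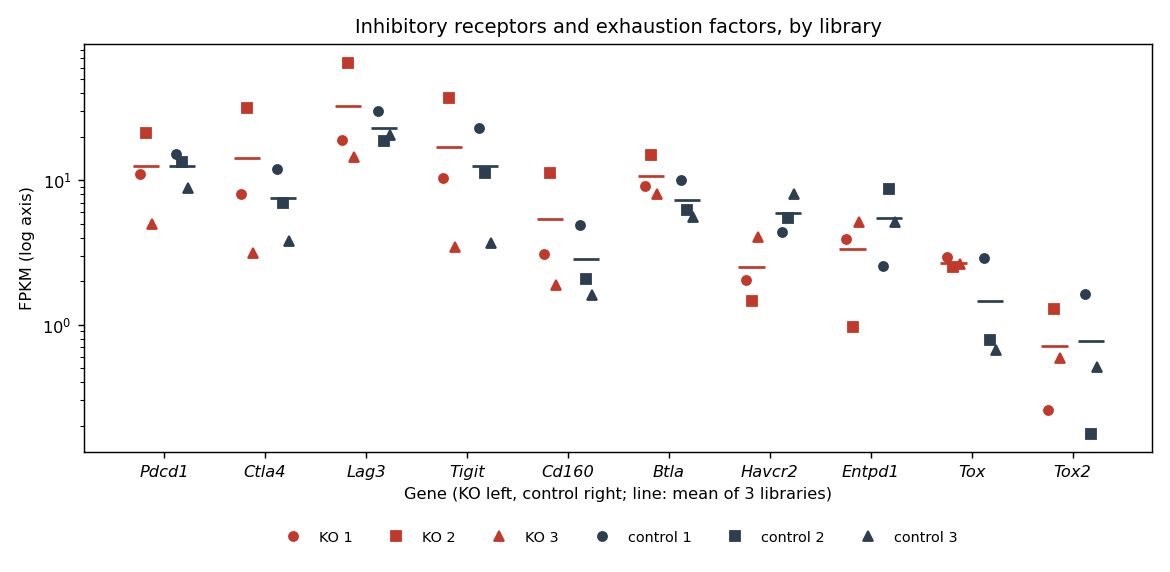
FPKM on a log axis of each of the 10 genes in the 3 KO libraries (left of each pair) and the 3 control libraries (right), with a line at the mean of each group. KO 2 is the highest point for 6 genes, and the groups are apart for Havcr2, where KO reaches 4.04 FPKM and control starts at 4.38 FPKM.

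Of the 10 genes, 6 were highest in KO 2 (Pdcd1, Ctla4, Lag3, Tigit, Cd160 and Btla), all of them checkpoint receptors, and control 1 was among the 2 highest libraries for 8. KO 2 and control 1 were also the libraries with the highest sums of Cd8a and Cd8b1. KO 3 was the lowest library for 4 genes and control 3 for 3. For these 6 receptors, the SD over the 3 KO libraries was larger than the difference between the group means.

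Pdcd1 encodes PD-1, the receptor for PD-L1 and PD-L2, which recruits a tyrosine phosphatase to the T cell receptor and CD28. It measured 11.1, 21.3 and 5.001 FPKM in KO 1, 2 and 3, against 15.3, 13.3 and 8.89 FPKM in control 1, 2 and 3. The lowest and the highest library were both KO, and the groups overlapped. The means were 12.5 ± 8.25 FPKM in KO and 12.5 ± 3.27 FPKM in control (SD, n = 3 each). On the log2 scale the difference was -0.17 (SE 0.51, limma adjusted p = 0.881).

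Ctla4 competes with CD28 for CD80 and CD86. It measured 8.03, 31.4 and 3.14 FPKM in KO 1, 2 and 3, against 12.0, 6.97 and 3.77 FPKM in control 1, 2 and 3. The spread of 10.01-fold between the highest and lowest library lay within KO. The log2 difference was 0.43 (SE 0.79, limma adjusted p = 0.799).

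Lag3 encodes a receptor for MHC class II. It measured 19.0, 65.2 and 14.4 FPKM in KO 1, 2 and 3, against 30.3, 18.6 and 20.6 FPKM in control 1, 2 and 3. KO 2 alone exceeded the controls, and KO 3 lay below all of them. The log2 difference was 0.21 (SE 0.57, limma adjusted p = 0.872).

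Tigit, a receptor for CD155 that competes with the activating receptor CD226, measured 10.3, 37.1 and 3.46 FPKM in KO 1, 2 and 3, against 22.9, 11.1 and 3.66 FPKM in control 1, 2 and 3. Its highest library was 10.7-fold above its lowest, the widest such range of the 10 genes. The values of KO 3 rested on 10 implied reads. The log2 difference was 0.17 (SE 0.92, limma adjusted p = 0.94), and the Tigit profile was closest to that of Ctla4, with a mean absolute difference of 0.26 per library after each gene was centred on its log2(FPKM + 1) mean.

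Cd160 and Btla encode receptors that share the ligand HVEM, the product of Tnfrsf14. Cd160 measured 3.10, 11.3 and 1.89 FPKM in KO 1, 2 and 3, against 4.89, 2.07 and 1.61 FPKM in control 1, 2 and 3. Btla measured 9.16, 14.9 and 7.97 FPKM in the KO libraries, against 10.1, 6.21 and 5.57 FPKM in the controls. Both were highest in KO 2, and within control both were highest in control 1. The log2 differences were 0.54 for Cd160 (SE 0.62, limma adjusted p = 0.671) and 0.49 for Btla (SE 0.34, limma adjusted p = 0.493). Btla varied least of the checkpoint receptors, 2.67-fold over the 6 libraries. The ligand gene Tnfrsf14 measured 22.8, 18.1 and 22.0 FPKM in KO 1, 2 and 3, against 22.6, 9.12 and 15.3 FPKM in control 1, 2 and 3. Exons of Cd160 overlap those of Pdzk1 on the opposite strand by 68 bases, and Pdzk1 was at most 0.468 FPKM in any library. The strand setting of the counting is not given in the sources used here.

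Havcr2 encodes TIM-3, which marks terminally exhausted CD8+ T cells and is also carried by macrophages and dendritic cells. It measured 2.04, 1.45 and 4.04 FPKM in KO 1, 2 and 3, against 4.38, 5.43 and 7.99 FPKM in control 1, 2 and 3. Every KO library lay below every control, by a narrow margin between KO 3 and control 1. The means were 2.51 ± 1.35 FPKM in KO and 5.93 ± 1.86 FPKM in control (SD, n = 3 each). On the log2 scale the difference was -1.02 (SE 0.39, unadjusted p = 0.0372, limma adjusted p = 0.417). The difference was negative in all 16 alternative settings, from -2.01 to -0.68. Since the groups did not overlap, fits with libraries left out could only give a negative sign, so this count adds little. The lowest limma adjusted p was 0.164, with values scaled to the T cell core sum, so none passed. The KO 1 value rested on 19 implied reads. The genes of the fixed lists closest to Havcr2 over the 6 libraries were Cd244a, another inhibitory receptor, at a mean absolute difference of 0.15, and Ccr2, a chemokine receptor of monocytes, at 0.25. The sum of 14 macrophage and monocyte genes was 990, 289 and 1894 FPKM in KO 1, 2 and 3, against 1414, 3367 and 1980 FPKM in control 1, 2 and 3. Hmox1 was the largest part of each sum, at 705, 134 and 1304 FPKM in KO 1, 2 and 3, against 958, 2514 and 1457 FPKM in control 1, 2 and 3. None of these 14 genes was at 0 in any library, and 13 had a lower estimate in KO, with C1qc at -0.009. Of the 14, 2 had every KO library below every control, beside 9.44% of all tested genes. C1qa, C1qb, C1qc, Vcam1, Spic and Marco were highest in KO 3. The part of these 14 genes in the Havcr2 difference was not tested.

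Entpd1 encodes CD39, which hydrolyses extracellular ATP on the way to adenosine. It measured 3.93, 0.964 and 5.13 FPKM in KO 1, 2 and 3, against 2.53, 8.64 and 5.16 FPKM in control 1, 2 and 3. KO 2 was the lowest library and control 1 the next, while control 2 was the highest. Among the 10 genes, Havcr2, also lowest in KO 2, was the closest to Entpd1, at a mean absolute difference of 0.51, and Tigit the farthest, at 1.49. The log2 difference was -0.61 (SE 0.57, limma adjusted p = 0.602). Its profile was closest to that of Cd68, a lysosomal gene of macrophages, at a mean absolute difference of 0.22, and KO 2 also had the lowest macrophage and monocyte sum. Whether RNA of such cells has a part in the Entpd1 values was not tested.

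Tox, an HMG-box factor that sustains the exhausted state, measured 2.92, 2.51 and 2.62 FPKM in KO 1, 2 and 3, against 2.91, 0.787 and 0.664 FPKM in control 1, 2 and 3. The KO libraries and control 1 were nearly level, and control 2 and control 3 stood below. The means were 2.68 ± 0.213 FPKM in KO and 1.45 ± 1.26 FPKM in control (SD, n = 3 each). On the log2 scale the difference was 0.70 (SE 0.40, limma adjusted p = 0.433). Without control 2 and control 3 the log2 difference was -0.09, with 1 control library left and so no test of the genotypes. Tox was most like Bach2, a repressor of effector differentiation, at a mean absolute difference of 0.10, and next Nfatc2 at 0.19. Exons of Tox overlap those of Gm11802 on the opposite strand by 260 bases, and Gm11802 was not analysed here. Its relative Tox2 measured 0.258, 1.28 and 0.587 FPKM in KO 1, 2 and 3, against 1.64, 0.176 and 0.508 FPKM in control 1, 2 and 3. These rested on 3, 64 and 6 implied reads in the KO libraries, against 66, 9 and 26 in the controls, so KO 1 was at the floor of 3 reads. Tox2 was highest in control 1 and KO 2, and the groups overlapped. Without the filter on low values its log2 difference was -0.01 (limma adjusted p = 0.989).

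**Figure D2:**
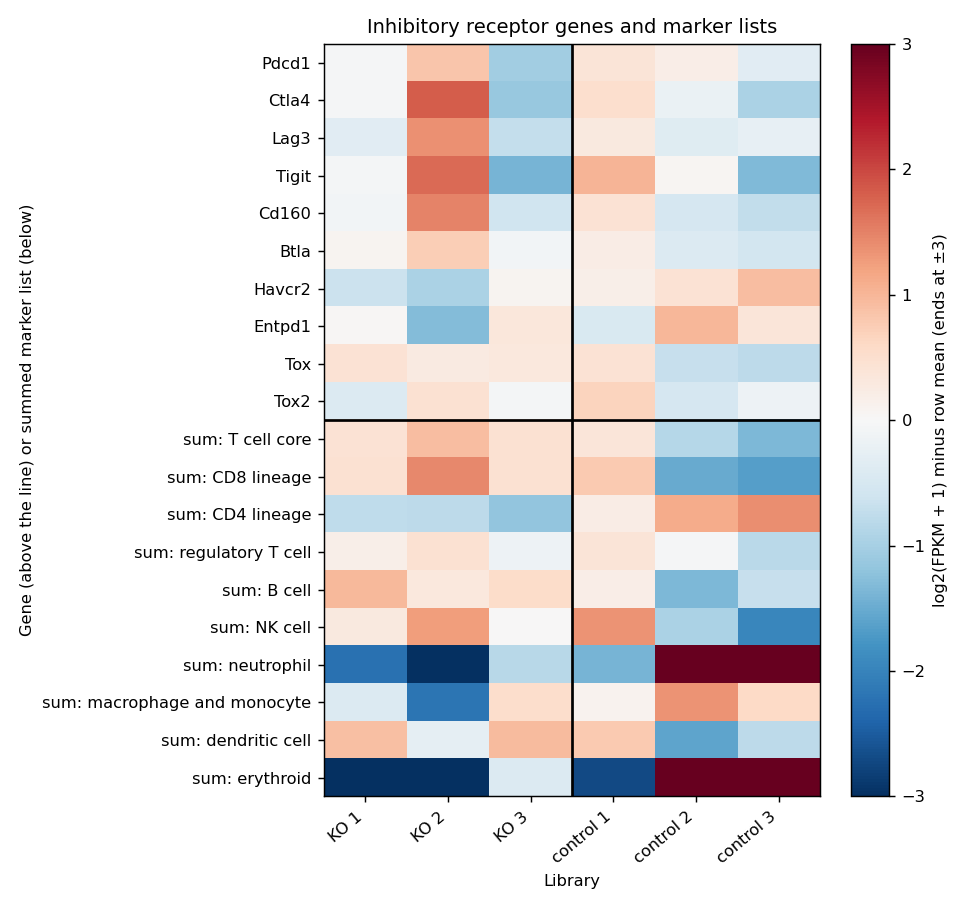
Each cell is log2(FPKM + 1) of a gene, or of a summed marker list, minus the mean of its row, in KO 1 to 3 (left) and control 1 to 3 (right). Pdcd1, Ctla4, Lag3, Tigit, Cd160 and Btla are highest in KO 2, Havcr2 and Entpd1 are lowest there, and the neutrophil and erythroid sums are highest in control 2 and control 3.

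By mean level, Lag3 was first in both genotypes, at 32.9 ± 28.1 FPKM in KO and 23.1 ± 6.25 FPKM in control (SD, n = 3 each), and Tigit was second. Tox2 was last in both, at 0.709 ± 0.523 FPKM in KO and 0.774 ± 0.767 FPKM in control. In KO, the order was Lag3, Tigit, Ctla4, Pdcd1, Btla, Cd160, Entpd1, Tox, Havcr2 and Tox2. Among these neighbours, the gap exceeded the larger SD of the pair between Btla and Cd160 and between Havcr2 and Tox2, and in no other pair. In control, the order was Lag3, Tigit, Pdcd1, Ctla4, Btla, Havcr2, Entpd1, Cd160, Tox and Tox2, and the gap exceeded the larger SD between Lag3 and Tigit and between Pdcd1 and Ctla4. All other neighbours in control were closer than their spread. Lag3 was higher than 66.0% to 93.5% of the tested genes in the KO libraries and 76.9% to 84.5% in the controls, while Tox was higher than 19.3% to 29.6% in KO and 8.28% to 27.3% in control.

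Because the T cell core sum differed between libraries, each gene was also expressed as a percentage of that sum, a scaling added after the data were seen. On this scale the group means of Tox were nearly equal, at 0.202% ± 0.0492 in KO and 0.202% ± 0.0481 in control (SD, n = 3 each). Single libraries ranged 1.73-fold, against 4.396-fold in FPKM. Cd160 was 0.428%, 0.421% and 0.462% in control 1, 2 and 3, but 0.259%, 0.665% and 0.154% in KO 1, 2 and 3. The controls therefore lay close together for Cd160, and the KO libraries lay on both sides of them. Havcr2 and Entpd1 spread the most, over 26.8-fold and 31.0-fold. Pdcd1 was 0.923%, 1.26% and 0.408% in KO 1, 2 and 3, against 1.34%, 2.72% and 2.55% in control 1, 2 and 3. All KO libraries lay below all controls for Pdcd1, Havcr2 and Btla, 3 of the 10 genes, where the same held for 38.3% of all tested genes, so that share is no larger than the background. This scaling put the median over all tested genes at -0.96 on the log2 scale, beside -0.93 for the 9 genes.

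**Figure D3:**
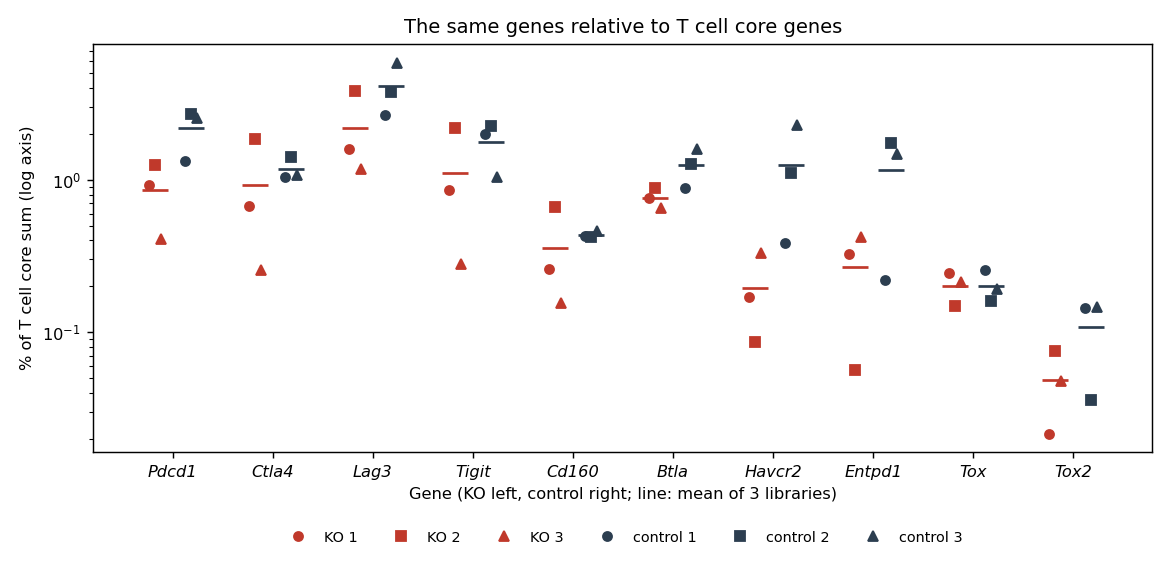
FPKM of each gene as a percentage of the summed FPKM of 10 T cell core genes, on a log axis, in KO (left of each pair) and control (right), with a line at the mean of 3 libraries. Tox lies between 0.148% and 0.255% in all 6 libraries, and Entpd1 runs from 0.0568% in KO 2 to 1.76% in control 2.

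With each library left out in turn, 0 of the 9 genes passed in any fit. Without KO 2, 1821 of all genes passed (13.0%), and without control 1, 363 passed (2.6%), none of them among the 9. Of these calls, 1687 were higher and 134 lower in KO without KO 2, and 146 higher and 217 lower without control 1. The fit without KO 2 set KO 1 and KO 3, of 3420290 and 3004540 fragments, against controls of 11840600 to 15036300. KO 1 and KO 3 also had 18934 and 19268 genes at 1 FPKM or more, against 12559 to 13713 in the controls. The part of these differences between libraries in the calls was not tested. The sign of several estimates rested on KO 2: without it, the log2 differences were -0.64 for Tigit, -0.43 for Lag3, -0.37 for Ctla4 and -0.07 for Cd160. Without KO 3 that of Pdcd1 was 0.31, and without control 3 that of Tigit was -0.45. With KO 2 as the remaining KO library, the estimates were 2.04 for Ctla4, 1.78 for Tigit, 1.77 for Cd160, 1.49 for Lag3 and 0.76 for Pdcd1, values of 1 library with no test of the genotypes. In the 6 fits that left out 1 library, the estimates ran from -1.31 to -0.79 for Havcr2, 0.24 to 0.72 for Btla and 0.48 to 1.09 for Tox. Those of Entpd1 ran from -0.98 without control 1 to -0.11 without KO 2, with -0.26 without control 2.

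**Figure D4:**
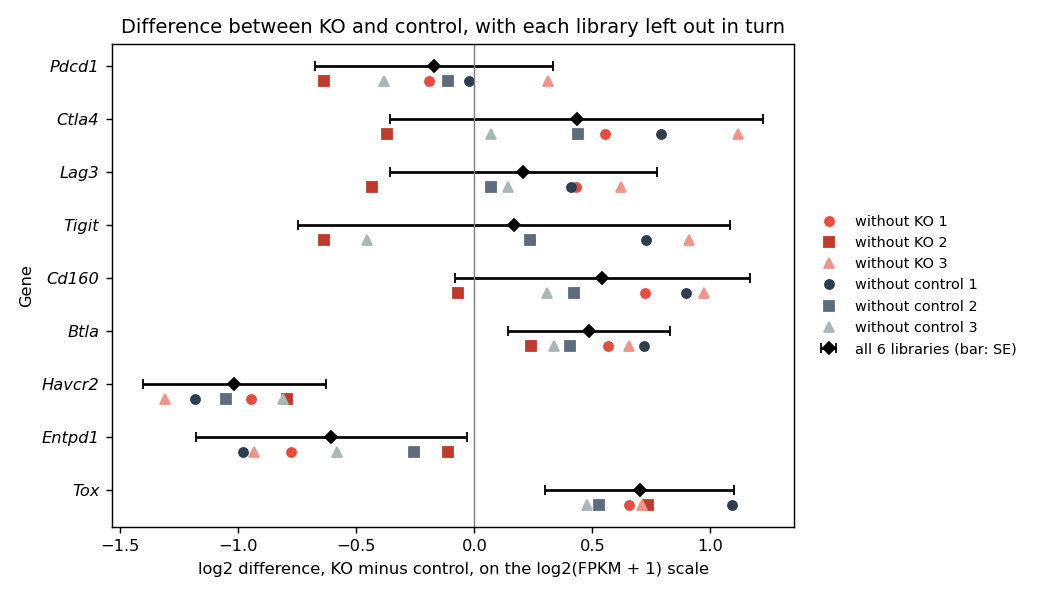
Log2 difference, KO minus control, of the 9 tested genes on the log2(FPKM + 1) scale, with all 6 libraries (diamond, bar: SE) and with each library left out (points below it). Tigit runs from -0.64 without KO 2 to 0.91 without KO 3, while all points of Havcr2 lie between -1.31 and -0.79.

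Of 14 listed ligand genes, 11 were tested, 8 with a lower and 3 with a higher estimate in KO and 0 past the test. Their median log2 difference was -0.56, beside 0.10 for all tested genes. Tnfsf14, among the 8 and at -0.583, encodes a ligand of HVEM and not of these receptors. Cd274, which encodes PD-L1, measured 21.2, 20.7 and 8.18 FPKM in KO 1, 2 and 3, against 32.1, 51.6 and 41.4 FPKM in control 1, 2 and 3. Pdcd1lg2, which encodes PD-L2, measured 3.38, 3.35 and 2.43 FPKM in the KO libraries, against 4.005, 9.23 and 10.8 FPKM in the controls. For this pair of PD-1 ligands every KO library lay below every control, with limma adjusted p = 0.417 for each. That pattern held for 2 of the 11 tested ligands, beside 9.44% of all tested genes. Ceacam1, a reported ligand of TIM-3, measured 1.46, 0.328 and 0.516 FPKM in the KO libraries, against 0.887, 7.54 and 18.3 FPKM in the controls. Lgals3, a galectin that binds LAG-3, measured 364 ± 245 FPKM in KO and 671 ± 221 FPKM in control (SD, n = 3 each). Neutrophil and monocyte genes also differed between control 1 and the other controls, and their part in the ligand values was not tested.

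Of the other inhibitory receptors, 12 of 14 were tested, 5 with a higher and 7 with a lower estimate in KO and 0 past the test (median log2 difference -0.04). The 4 with the smallest p-values were Pilra, Cd200r1, Lair1 and Klrc1. Pilra measured 2.63 ± 0.713 FPKM in KO and 9.97 ± 3.05 FPKM in control, and Lair1 1.43 ± 0.315 FPKM in KO and 4.04 ± 1.41 FPKM in control (SD, n = 3 each). Cd200r1 measured 4.17, 2.31 and 8.02 FPKM in KO 1, 2 and 3, against 8.30, 59.1 and 48.6 FPKM in control 1, 2 and 3. Control 1 was thus close to KO 3 for Cd200r1. The part of neutrophil and monocyte RNA in these values was not tested. Pilra, Cd200r1 and Lair1 each had every KO library below every control and a limma adjusted p of 0.417. That pattern held for 3 of the 12 tested, beside 9.44% of all tested genes. Naming genes by smallest p favours groups that lie apart. Vsir, which encodes the checkpoint receptor VISTA, measured 75.9, 46.7 and 70.0 FPKM in KO 1, 2 and 3, against 64.3, 52.0 and 83.5 FPKM in control 1, 2 and 3, with overlapping groups. Klrc1, which encodes the NKG2A receptor of NK and CD8+ T cells, measured 0.442, 3.71 and 0.168 FPKM in KO 1, 2 and 3, against 5.62, 5.50 and 1.81 FPKM in control 1, 2 and 3.

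All 11 costimulatory receptors were tested, 9 with a higher and 2 with a lower estimate in KO and 0 past the test, beside 56.9% higher among all tested genes. Their median log2 difference was 0.32. Cd2, an adhesion and costimulatory receptor of T cells, measured 113 ± 16.2 FPKM in KO and 53.7 ± 31.8 FPKM in control, with every KO library above every control (limma adjusted p = 0.417). Slamf7, a receptor of the SLAM family, had every KO library below every control, at 5.30, 4.61 and 4.36 FPKM in KO 1, 2 and 3, against 10.4, 6.17 and 5.41 FPKM in control 1, 2 and 3 (limma adjusted p = 0.459). So 1 of the 11 lay wholly above and 1 wholly below the controls, beside 6.7% and 9.44% of all tested genes. Cd27, a costimulatory receptor of the TNF receptor family, measured 95.2 ± 21.9 FPKM in KO and 43.0 ± 31.9 FPKM in control. Slamf6 measured 18.1 ± 12.8 FPKM in KO and 7.31 ± 8.19 FPKM in control, and Crtam 8.29 ± 4.49 FPKM in KO and 4.13 ± 2.96 FPKM in control (SD, n = 3 each). Control 1 measured 79.3 FPKM for Cd27, 16.8 FPKM for Slamf6 and 7.275 FPKM for Crtam, within the KO range of each. Control 2 and control 3 lay below every KO library for Cd27, Slamf6 and Crtam. The T cell core genes moved with this list: all 10 had a higher estimate in KO, with a median of 0.97, and their part in it was not tested. Tnfrsf9, which encodes the costimulatory receptor 4-1BB, was the gene most like Pdcd1 over the 6 libraries, at a mean absolute difference of 0.13.

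In the adenosine pathway, which follows on from CD39, 9 of 10 genes were tested, 6 with a higher and 3 with a lower estimate and 0 past the test, with a median of 0.38. The receptor genes Adora2b and Adora2a differed in direction by estimate. Adora2b measured 0.317, 1.70 and 1.44 FPKM in KO 1, 2 and 3, against 5.40, 8.55 and 2.49 FPKM in control 1, 2 and 3. Adora2a, the main adenosine receptor of T cells, measured 35.6, 27.7 and 20.5 FPKM in the KO libraries, against 32.6, 6.91 and 4.67 FPKM in the controls. Adora2a was thus lowest in control 2 and control 3, where the T cell core sum was lowest. Dpp4, which anchors adenosine deaminase in human cells, measured 34.3 ± 14.0 FPKM in KO and 10.8 ± 11.2 FPKM in control, and Entpd6, a relative of Entpd1, 11.8 ± 3.47 FPKM in KO and 5.43 ± 3.31 FPKM in control (SD, n = 3 each). Control 1 measured 23.8 FPKM for Dpp4 and 9.25 FPKM for Entpd6, within the KO range of each, and control 2 and control 3 were lower.

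Of 20 other Tox family and exhaustion transcription factors, 19 were tested, 12 with a higher and 7 with a lower estimate and 0 past the test, with a median of 0.18. Bhlhe40 measured 20.7, 25.2 and 9.34 FPKM in KO 1, 2 and 3, against 32.9, 42.9 and 41.1 FPKM in control 1, 2 and 3, and Irf4, which responds to T cell receptor signal strength, 12.0, 16.4 and 4.28 FPKM in KO, against 17.3, 23.1 and 28.2 FPKM in control. Every KO library lay below every control for both. Nr4a1, an early gene of T cell receptor signalling, measured 16.8, 44.4 and 10.6 FPKM in KO, against 39.8, 64.3 and 45.9 FPKM in control. Ikzf2, which encodes the zinc finger factor Helios, measured 6.27, 3.20 and 6.08 FPKM in KO, against 2.92, 2.37 and 2.68 FPKM in control. Its KO libraries all lay above the controls, and none of these 4 genes passed (limma adjusted p = 0.417 each). Of the 19 tested, 2 lay wholly below and 1 wholly above the controls in KO, beside 9.44% and 6.7% of all tested genes.

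Among 15 phosphatases and adaptors that act downstream of these receptors, all were tested, 9 with a higher and 6 with a lower estimate and 0 past the test, with a median of 0.15. Inpp5d, which encodes the inositol phosphatase SHIP-1, measured 13.9, 12.6 and 10.8 FPKM in KO 1, 2 and 3, against 20.1, 19.0 and 34.6 FPKM in control 1, 2 and 3. Lck, the kinase that starts T cell receptor signalling, measured 224 ± 29.4 FPKM in KO and 99.5 ± 85.3 FPKM in control, and Sh2d1a, which encodes the adaptor SAP, 7.58 ± 3.57 FPKM in KO and 2.61 ± 1.94 FPKM in control (SD, n = 3 each). Ptpn22, a phosphatase that restrains T cell receptor signalling, measured 54.8 ± 18.1 FPKM in KO and 32.7 ± 23.3 FPKM in control. Control 1 measured 198 FPKM for Lck and 4.76 FPKM for Sh2d1a, just under every KO library. It measured 59.6 FPKM for Ptpn22, within the KO range. For Lck, Sh2d1a and Ptpn22, control 2 and control 3 lay well below control 1. Ptpn6 and Ptpn11, which encode the phosphatases SHP-1 and SHP-2, measured 69.4, 80.8 and 56.8 FPKM and 17.8, 13.9 and 12.8 FPKM in KO 1, 2 and 3, against 89.1, 73.9 and 87.6 FPKM and 18.7, 13.7 and 17.7 FPKM in control 1, 2 and 3.

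Marker lists of other cells that carry these receptors varied by library as well. Regulatory T cell genes summed to 63.5, 77.3 and 49.98 FPKM in KO 1, 2 and 3, against 73.2, 54.4 and 31.8 FPKM in control 1, 2 and 3. Foxp3, the defining factor of these cells, measured 3.30, 2.13 and 0.584 FPKM in KO, against 2.79, 1.54 and 0.650 FPKM in control. Foxp3, Ctla4 and Tigit were lowest in KO 3 and control 3, but Foxp3 was highest in KO 1, and Ctla4 and Tigit in KO 2. Il10, of the same list, was highest in KO 3, at 2.29 FPKM, which rested on 9 implied reads. Tnfrsf18, also of this list, was highest in KO 2, at 20.7 FPKM, as Ctla4 and Tigit were. Il2ra and Tnfrsf4 were highest in control 1, at 13.4 and 37.2 FPKM, and next in KO 2, at 12.9 and 35.1 FPKM. Ikzf2 and Ikzf4 were highest in KO 1, and Lrrc32 in control 1. B cell genes summed to 86.2, 53.7 and 64.0 FPKM in KO, against 49.6, 16.4 and 26.6 FPKM in control. This sum was lowest in control 2 and control 3, as Btla was, but highest in KO 1, while Btla was highest in KO 2. NK cell genes summed to 19.5, 39.1 and 16.0 FPKM in KO, against 42.0, 7.71 and 3.30 FPKM in control. Eomes and Gzma, which CD8+ T cells also express, made up most of the sums in KO 2 and control 1. Ncr1, which encodes the NK receptor NKp46, measured 7.404, 0.752 and 4.75 FPKM in KO, against 1.04, 0.562 and 0.605 FPKM in control, and so was lower in KO 2 and control 1, where Cd160 was highest, than in KO 1 and KO 3. Klrb1c, of the same list, went the other way, at 1.777, 2.921 and 0.8992 FPKM in KO, against 0.9127, 0.1574 and 0.1572 FPKM in control. Like Cd160, Klrb1c was highest in KO 2, and within control in control 1. The Ncr1 values rested on 39, 17 and 22 implied reads in KO, against 19, 13 and 14 in control. Those of Klrb1c rested on 18, 127 and 8 in KO, against 32, 7 and 7 in control. Dendritic cell genes, of cells that carry Havcr2, summed to 30.5, 12.8 and 31.4 FPKM in KO, against 27.8, 4.59 and 8.72 FPKM in control. This sum was lowest in control 2 and control 3, where Havcr2 was highest. Flt3 and Batf3 made up most of it in KO 1 and KO 3. Of the 5 tested genes of this list, 4 had a higher estimate in KO and 1, Itgax, a lower. Itgax measured 1.948, 4.311 and 1.525 FPKM in KO, against 5.82, 1.455 and 3.863 FPKM in control. Cd4, Zbtb7b and Cd40lg, genes of the CD4 lineage, summed to 6.13, 5.95 and 4.25 FPKM in KO, against 12.9, 25.1 and 30.6 FPKM in control, and Cd40lg was at 0 in KO 1. The part of these cells in the levels of Ctla4, Tigit, Btla, Cd160 and Havcr2 was not tested.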

How the data were processed

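Per the labels' protocols, RNA of flash-frozen splenic CD8+ T cells was extracted with Trizol before NEBNext Ultra library preparation. Bowtie2 2.2.3, HTSeq 0.6.0, HISAT2 version 2 and mm8 appear in the submitters' processing notes without roles; their strand setting and annotation are not stated. The authors deposited FPKM, a unit read from the values, for 35458 identifiers, of which 35313 matched GENCODE M21. Times summed exon length, 92.1% to 93.4% of values of under 200 reads lay within 0.02 of a whole read, which gave implied reads and totals. These are approximate, and floors cover counting error only. Libraries of 1 group differed beyond sampling noise (chi-square per gene 16.4 to 195).

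The 13956 genes that reached 1 FPKM in 3 or more libraries were tested on log2(FPKM + 1), a scale that understates changes of low genes, with limma 3.58.1 (R 4.3.3), an intensity trend, no covariate, and Benjamini-Hochberg adjusted p-values at 0.05. limma was tested on simulated data, in which libraries of a group differed by random spread alone. The shifts in marker genes between libraries of a group seen here were not simulated, so that test gives no error rate for these data. The genes and lists were chosen with earlier results of these data known. Named were the 10 genes, up to 4 genes per other list by smallest p, and for each gene the 2 listed genes closest in centred log2 values; not all of these are reported here. Foxp3, Il10, Ncr1, Slamf7, Vsir, Tnfrsf14, Ptpn6, Ptpn11 and the printed promoters were chosen after values were seen. So were Klrb1c, Il2ra, Lrrc32, Hmox1, C1qa, C1qb, C1qc, Vcam1, Spic and Marco. Replicate numbers did not pair the libraries. Alternatives were a pseudocount of 0.1, no filter, quantile and common-sum scaling, a replicate block, libraries left out, protein-coding genes, limma-voom and T cell core scaling.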

Additional observations from a re-analysis of the deposited data

How the results depend on the processing

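Under all 16 alternatives 0 of the 9 tested genes passed. The replicate number as a replicate block left 0 of all genes called, with 1692 at an unadjusted p under 0.05. Same-numbered libraries correlated at 0.11, 0.02 and 0.02 in their deviations, and KO 3 correlated best with control 2 (0.14), so no pairing was assumed. Calls among all genes ranged from 0 to 1821 with 1 library left out. Genes with a higher estimate, 6 of 9 with all libraries, ranged from 2 to 7, with 2 without control 2 and 3 and 0 after T cell core scaling. Their median log2 difference was 0.98 without KO 1 and 3 and -0.93 after T cell core scaling. With 1 library left out the log2 differences ranged from -0.64 to 0.31 for Pdcd1, -0.43 to 0.62 for Lag3, -0.64 to 0.91 for Tigit, -0.37 to 1.12 for Ctla4 and -0.07 to 0.97 for Cd160. Signs also turned for Tigit after quantile normalization (-0.15), and for Pdcd1 with limma-voom (0.22, where the median of the 9 genes was 0.73) and without KO 1 and 3 (0.76). Without control 2 and 3 they turned for Lag3 (-0.20), Tigit (-0.94), Ctla4 (-0.28), Cd160 (-0.16), Entpd1 (0.15) and Tox (-0.087), and after T cell core scaling for Lag3 (-0.98), Tigit (-0.93), Ctla4 (-0.65), Cd160 (-0.39), Btla (-0.62) and Tox (-0.002). The cause was not tested. Quantile normalization moved the median of all genes to -0.12 and the share of higher estimates to 42.2%, against 56.9%, and no low-value filter gave 68.4%, the removal of control 2 and 3 44.9%, and T cell core scaling 16.7%. KO 1 and KO 3 had the fewest fragments, so their values of low genes are the least precise. These libraries also had the most genes at 1 FPKM or more, 18934 and 19268, against 12200 in KO 2 and 12559 to 13713 in the controls. The reason for this excess was not tested.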
